A study of Mus musculus with 12 samples.

Results

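Microglia read their surroundings through receptors on the cell surface, and many of these signal through a small set of shared partners. This report describes 10 such genes, found by matching their symbols to Ensembl identifiers, out of 55487 genes in the deposited table. They are the adaptors *Tyrobp* and *Hcst*, the receptor *Trem2*, the Siglec receptors *Siglech*, *Siglece* and *Cd33*, the paired or related myeloid receptors *Pilra*, *Sirpa* and *Tarm1*, and the kinase *Syk*. All 10 passed the filter on low counts that left 16908 genes to test. Their levels were measured by RNA-seq in microglia sorted from tissue below the corpus callosum, in front of a cut behind the lateral ventricle. The olfactory bulb was left out, and the mice were of the YARG strain, at postnatal day 13. In this strain, YFP was inserted behind the stop codon of *Arg1*, so that YFP serves as a reporter of this locus, and every library came from such mice. The study reports that its RNA-seq did not detect *Arg1* transcripts in the YFP+ cells, whereas RT-qPCR on sorted cells did. Sorted cells were CX3CR1+ and CD206-, and were divided by YFP into ARG1+ and ARG1- microglia, with 3 libraries from females and 3 from males for each population. Tissue of 3 to 5 mice of a sex was pooled before sorting, so each library is a pool, and the labels do not say which ARG1+ and ARG1- libraries came from the same pool.

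As background, TYROBP (also called DAP12) and HCST (also called DAP10) are short transmembrane adaptors that have almost no extracellular part of their own and associate with receptors that cannot signal alone. TREM2, a receptor for lipids and lipoproteins, uses TYROBP, whose phosphorylated tyrosine motif (ITAM) recruits SYK, whereas HCST recruits PI3 kinase. Siglecs bind sialic acid on glycoproteins and glycolipids, and many of them, like PILRA and SIRPA, carry inhibitory tyrosine motifs (ITIMs) that recruit phosphatases and oppose ITAM signals. In the brain this pathway is known for control of microglial survival, phagocytosis and the response to damage.

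Promoters from RefSeq (build GRCm38.p6, 250 bases before to 50 bases after a gene's start) were at hand for 8 of the 10 genes, all except *Tyrobp* and *Sirpa*. They were searched on both strands for GGAAGT, the core of the motif that PU.1 and other ETS factors bind, and for the longer GAGGAAGT, every match of which also holds GGAAGT. The promoters of 5 of these 8 genes held GGAAGT, beside 23.8% of 32851 promoters of the same length, and 0 of 8 held GAGGAAGT, beside 3.2% of all. A gene was counted if any of its windows matched, whereas these shares are per promoter. *Syk* has more than 1 window, and only 1 of them held a match. The promoters of *Siglech*, *Cd33*, *Hcst* and *Trem2* are shown because the results below turn on these genes. *Siglech* and *Cd33*, whose levels differed in opposite directions, each hold 1 match at 156 and 152 bases before the start, *Hcst* holds a pair at 45 and 16 bases before it, and *Trem2* holds none. Each is printed 5′ to 3′ on the strand of its gene, with matches in capitals (ACTTCC is GGAAGT read on the other strand). The window of *Trem2* lies at chr17:48346151-48346450 (plus strand), that of *Hcst* at chr7:30419805-30420104 (minus strand), that of *Siglech* at chr7:55767934-55768233 (plus strand) and that of *Cd33* at chr7:43533122-43533421 (minus strand). The start of *Cd33* in RefSeq lies inside the longer gene model of GENCODE.
Siglech: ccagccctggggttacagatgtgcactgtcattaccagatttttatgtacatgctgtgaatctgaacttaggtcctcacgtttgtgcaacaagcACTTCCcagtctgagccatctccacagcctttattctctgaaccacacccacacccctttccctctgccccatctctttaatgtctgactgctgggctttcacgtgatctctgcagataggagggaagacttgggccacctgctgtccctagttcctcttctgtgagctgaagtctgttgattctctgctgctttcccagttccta
Cd33: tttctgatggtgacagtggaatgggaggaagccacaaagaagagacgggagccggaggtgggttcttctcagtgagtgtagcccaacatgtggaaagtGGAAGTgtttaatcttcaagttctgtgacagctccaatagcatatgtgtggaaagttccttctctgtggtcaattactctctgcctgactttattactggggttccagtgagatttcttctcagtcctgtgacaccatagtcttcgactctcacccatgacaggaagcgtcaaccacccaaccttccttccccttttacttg
Hcst: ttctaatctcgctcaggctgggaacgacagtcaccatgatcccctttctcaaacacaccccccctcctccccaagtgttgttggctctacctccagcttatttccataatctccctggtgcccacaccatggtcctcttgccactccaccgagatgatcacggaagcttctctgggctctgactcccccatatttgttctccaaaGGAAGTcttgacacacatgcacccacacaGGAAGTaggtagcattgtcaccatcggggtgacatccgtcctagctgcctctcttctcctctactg
Trem2: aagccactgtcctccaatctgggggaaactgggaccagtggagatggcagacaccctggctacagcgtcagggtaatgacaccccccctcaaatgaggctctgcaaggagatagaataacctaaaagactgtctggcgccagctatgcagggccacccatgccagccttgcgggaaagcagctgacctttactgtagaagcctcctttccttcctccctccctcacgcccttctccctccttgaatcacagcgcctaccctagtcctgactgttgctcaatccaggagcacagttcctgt
These matches describe letters only, and binding was not measured.

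ARG1+ microglia had lower levels of *Tyrobp*, *Siglech*, *Trem2*, *Pilra* and *Siglece* than ARG1- microglia, and a higher level of *Cd33*. *Tyrobp* was at 50.1% of its ARG1- level, *Siglech* at 60.5% and *Trem2* at 76.0%. In edgeR's quasi-likelihood test with sex as a second term, 6 of the 10 genes passed an adjusted p of 0.05, of which 5 were lower and 1 was higher. Over all 16908 genes tested, 15.9% were called, 9.42% lower and 6.44% higher. The ARG1+ and ARG1- libraries did not overlap for 2 of the 10 genes, *Tyrobp* and *Siglech*, both lower in ARG1+ microglia, beside 10% of all genes, 6.56% with ARG1+ below and 3.48% with ARG1+ above. The median log2 fold change of the 10 genes was -0.46, against 0.06 for all genes tested. Cells were sequenced in bulk, so that fewer cells of a type and less RNA per cell cannot be told apart. Levels below are CPM (counts scaled to a common library total), with totals normalized by the TMM method, and log2 fold changes are ARG1+ relative to ARG1-, with the standard error (SE) of the fit.

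**Figure D1:**
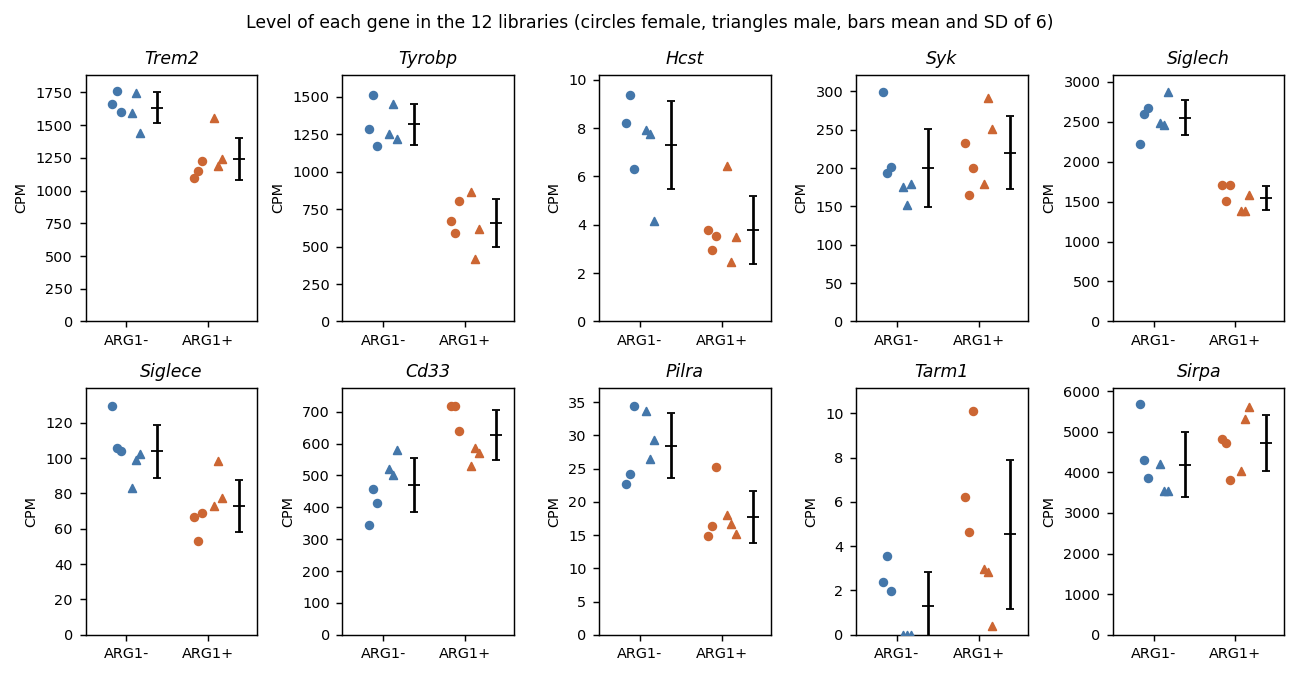
Level of each of the 10 genes (CPM, y axis, from 0) in the 6 ARG1- (blue) and 6 ARG1+ (orange) libraries, with circles for females, triangles for males, and the mean and SD of 6 libraries as a bar. Tyrobp and Siglech have no overlap between populations, and Tarm1 is at 0 in the 3 ARG1- male libraries.

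A pattern that covers many genes bears on these values. In ARG1+ libraries, long genes had relatively more counts and short genes fewer. Exon length is that of all annotated exons of a gene joined, which can exceed the length of the transcripts present. The slope of a library's log2 CPM (deviation from the mean of all libraries) per doubling of exon length was between -0.17 and -0.09 in ARG1- libraries and between -0.02 and 0.23 in ARG1+ libraries, without overlap. Among genes with a mean of at least 10 CPM, the 2900 shortest (53 to 3407 bases of exon) had a median log2 fold change of -0.34, with 34.5% called lower and 2.76% higher. The 2904 longest (5928 to 123178 bases) had a median of 0.25, with 3.82% called lower and 15.7% higher. *Tyrobp*, *Hcst*, *Siglece*, *Pilra* and *Siglech* fall by length in the shortest group, *Trem2* and *Sirpa* in the middle group and *Cd33* and *Syk* in the longest. For this reason the change of each gene is also given after removal of each library's trend on length with the scaling between libraries kept, an alternative added after seeing the data. Under it 4 of the 10 genes were called, all lower (*Tyrobp*, *Siglech*, *Trem2* and *Pilra*), beside 12.8% of all genes, 7.79% lower and 5.05% higher. ARG1 status and the length slope go together in these libraries, and what sets the slope was not tested.

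**Figure D2:**
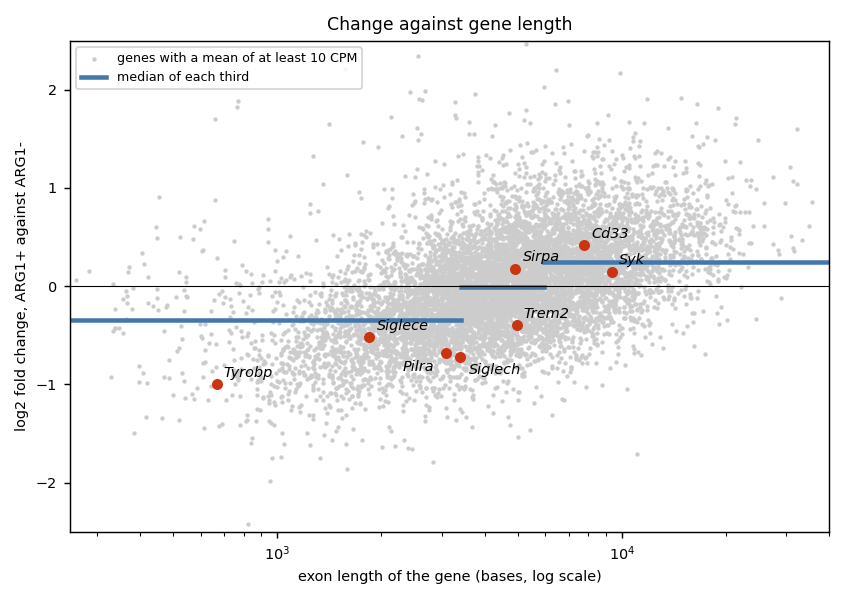
Log2 fold change (ARG1+ against ARG1-, y axis) against exon length in bases (x axis, log scale) for genes with a mean of at least 10 CPM (grey), with 8 of the 10 genes in red and the median of each of 3 length groups as a blue line. Genes beyond the axes and Hcst and Tarm1, with means under 10 CPM, are not drawn. Tyrobp, Siglece, Pilra, Siglech, Trem2 and Syk lie below the median line of their length group, and Sirpa and Cd33 above it.

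*Tyrobp* (ENSMUSG00000030579, chr7:30413760-30417585, plus strand) was the most abundant of the 10 genes per kilobase of exon in ARG1- microglia. Its level in ARG1- libraries was 1173 CPM at the lowest, 1270 at the median and 1516 at the highest, and in ARG1+ libraries 415 at the lowest, 645 at the median and 863 at the highest. Every ARG1+ library was below every ARG1- library, and the lowest was ARG1+ male replicate 12. The log2 fold change was -0.997 (SE 0.154, edgeR adjusted p = 0.00153), and it remained a call without any 1 of the 12 libraries. It was -0.80 with the length trend removed (edgeR adjusted p = 0.00251). At 667 bases of exon, *Tyrobp* is the shortest of the 10 genes.

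*Hcst* (ENSMUSG00000064109, chr7:30417712-30419854, minus strand) lies tail to tail with *Tyrobp*, with 126 bases between the annotated ends. It was far less abundant than *Tyrobp*, with 4.15 CPM at the lowest, 7.85 at the median and 9.38 at the highest in ARG1- libraries. In ARG1+ libraries it was at 2.48 CPM at the lowest, 3.51 at the median and 6.45 at the highest. The populations overlapped through ARG1- male replicate 14, the lowest of its population, and ARG1+ male replicate 11, the highest of its own. On the log2 scale the difference was -0.94 (SE 0.30, 95% confidence interval -1.60 to -0.29) and did not pass the test (edgeR adjusted p = 0.0529). It passed without either of these 2 libraries (adjusted p = 0.0329 and 0.0169), and with the length trend removed it was at -0.76 (adjusted p = 0.126). Since the kit does not mark strand, reads past either gene's end could not be assigned by strand.

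*Trem2* (ENSMUSG00000023992, chr17:48346401-48354147, plus strand) was at 1440 CPM at the lowest, 1630 at the median and 1762 at the highest in ARG1- libraries. In ARG1+ libraries it was at 1100 CPM at the lowest, 1207 at the median and 1555 at the highest. Only ARG1+ male replicate 11, the highest, overlapped the ARG1- range, and the other 5 ARG1+ libraries were below it. A log2 fold change of -0.40 (SE 0.09, edgeR adjusted p = 0.0109) was found, and the call held without any 1 library, between -0.45 and -0.34. Removal of the length trend left it at -0.40 (edgeR adjusted p = 0.0126).

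*Siglech* (ENSMUSG00000051504, chr7:55768178-55778925, plus strand), a Siglec that signals through TYROBP and is used as a marker of microglia, showed the smallest p of the 10 genes. ARG1- libraries were at 2222 CPM at the lowest, 2539 at the median and 2868 at the highest, and ARG1+ libraries at 1383 at the lowest, 1541 at the median and 1707 at the highest. The populations were well apart, and the fall was present in both sexes. Its log2 fold change was -0.73 (SE 0.08, edgeR adjusted p = 0.000426), between -0.77 and -0.66 without any 1 library, and -0.66 (edgeR adjusted p = 0.000734) with the length trend removed. Among 9 markers of plasmacytoid dendritic cells, the other cell type known for *Siglech*, 5 were tested, of which 1 was lower in ARG1+ microglia and 4 did not pass. Their summed level ranged from 721 to 917 CPM in ARG1- and from 659 to 834 CPM in ARG1+ libraries, of which *Irf8*, also a microglial gene, is one, and 2 of the 9 were at 0 in all libraries.

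*Siglece* (ENSMUSG00000030474, chr7:43651070-43660161, minus strand), an inhibitory Siglec with ITIMs, was at 83.2 CPM at the lowest, 103 at the median and 129 at the highest in ARG1- libraries. In ARG1+ libraries it was at 53.0 CPM at the lowest, 70.9 at the median and 98.2 at the highest. ARG1+ male replicate 12 lay inside the ARG1- range, and the other 5 were below it. The log2 fold change was -0.52 (SE 0.15, edgeR adjusted p = 0.0336). This call held without ARG1- male replicate 5 or 6 or ARG1+ male replicate 12, and was lost without any 1 of the other 9 libraries, with adjusted p up to 0.0878. With the length trend removed it was lost as well (-0.36, adjusted p = 0.214).

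*Cd33* (ENSMUSG00000004609, chr7:43524216-43544428, minus strand), a Siglec whose human counterpart is studied for its variants in Alzheimer's disease, was the only gene of the 10 called higher. ARG1- libraries were at 344 CPM at the lowest, 480 at the median and 580 at the highest, and ARG1+ libraries at 531 at the lowest, 612 at the median and 719 at the highest. The ranges overlapped, through the male libraries. The log2 fold change was 0.42 (SE 0.13, edgeR adjusted p = 0.0453), and it held as a call only without ARG1- male replicate 14 or ARG1+ male replicate 11, with adjusted p up to 0.102 without any 1 of the other 10. With the length trend removed it was 0.30 (edgeR adjusted p = 0.167), no longer a call.

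*Pilra* (ENSMUSG00000046245, chr5:137821952-137836281, minus strand), an inhibitory paired receptor, was lower in ARG1+ libraries, at 14.8 CPM at the lowest, 16.6 at the median and 25.3 at the highest. ARG1- libraries were at 22.6 CPM at the lowest, 27.9 at the median and 34.4 at the highest. ARG1+ female replicate 15 was the 1 ARG1+ library above the lowest ARG1- libraries. The log2 fold change was -0.68 (SE 0.18, edgeR adjusted p = 0.0218) and -0.61 (adjusted p = 0.0340) with the length trend removed. The call was lost without ARG1- female replicate 13, ARG1+ female replicate 7 or 8, or ARG1+ male replicate 12 or 16, with adjusted p between 0.0581 and 0.0751. Its activating partners *Pilrb1* and *Pilrb2*, near copies with which reads may be shared, had mean levels of at most 0.52 CPM.

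*Sirpa* (ENSMUSG00000037902, chr2:129592835-129632228, plus strand), the inhibitory receptor for CD47, was the 18th most abundant gene by CPM in ARG1+ and the 24th in ARG1- microglia. ARG1- libraries were at 3536 CPM at the lowest, 4031 at the median and 5675 at the highest, and ARG1+ libraries at 3813 at the lowest, 4774 at the median and 5609 at the highest. The ranges overlapped over most of their extent, and the log2 fold change of 0.18 (95% confidence interval -0.10 to 0.46, edgeR adjusted p = 0.404) did not pass the test. Removal of the length trend left it at 0.17 (adjusted p = 0.414). Levels of the near copies *Sirpb1a*, *Sirpb1b* and *Sirpb1c* were at most 0.095 CPM on average in either population.

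*Syk* (ENSMUSG00000021457, chr13:52583173-52648792, plus strand), the kinase that binds phosphorylated ITAMs, was at 151 CPM at the lowest, 187 at the median and 299 at the highest in ARG1- libraries. In ARG1+ libraries it was at 165 CPM at the lowest, 217 at the median and 291 at the highest, so that the populations overlapped over most of their range. The log2 fold change was 0.15 (95% confidence interval -0.24 to 0.54, edgeR adjusted p = 0.638). With the length trend removed its sign turned, to -0.03 (edgeR adjusted p = 0.941).

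*Tarm1* (ENSMUSG00000053338, chr7:3486500-3502624, minus strand), an activating receptor of myeloid cells that pairs with the Fc receptor gamma chain, was the least abundant of the 10 genes in CPM in ARG1- microglia. In ARG1- females it was at 2.37, 3.54 and 1.98 CPM, and in the 3 ARG1- male libraries it had 0 counts. In ARG1+ females it was at 6.24, 4.63 and 10.1 CPM, and in ARG1+ males at 2.98, 2.83 and 0.415 CPM, the last from 14 counts. Taking 3 counts per library as the limit that a count of 0 allows (0.0793 to 0.1 CPM in these libraries), the mean of 2.08 CPM in ARG1+ males was at least 23.2-fold higher than in ARG1- males. These limits cover counting error only, since reads without molecular identifiers are not independent molecules. Over both sexes *Tarm1* did not pass the test (edgeR adjusted p = 0.0577), and its fitted log2 fold change of 3.73 depends on how zero counts are treated. It was 3.84 with the length trend removed (adjusted p = 0.0619). *Gm44165*, a gene model on the same strand, overlaps *Tarm1*, so counts of this region may be split between them.

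**Figure D3:**
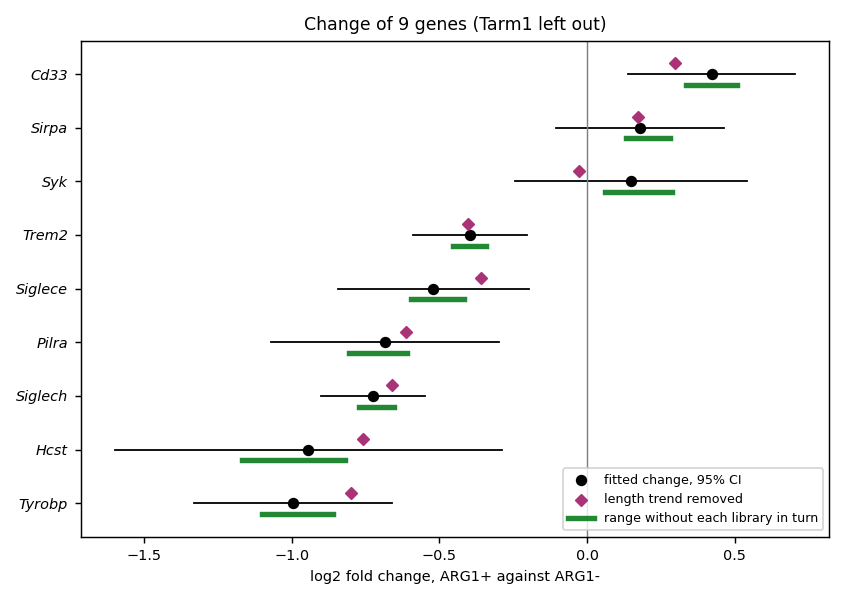
Log2 fold change of 9 genes (x axis, ARG1+ against ARG1-), with the fitted value and its 95% confidence interval in black, the value with the length trend removed as a purple diamond, and the range over fits without each library in turn as a green bar. Tarm1, with 0 counts in 3 libraries, is left out, and the diamond of Syk lies just on the other side of 0 from its fitted value, whereas that of Trem2 is close to it.

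The order of the genes was compared per kilobase of exon, in RPKM, with all annotated exons of a gene joined. Where the transcripts present are shorter than this, RPKM comes out too low, so the order depends on the gene models. In ARG1- microglia it was *Tyrobp* (1970 ± 205, SD, n = 6), *Sirpa* (852 ± 162), *Siglech* (754 ± 64.3), *Trem2* (330 ± 24.0), *Cd33* (60.4 ± 10.7), *Siglece* (56.2 ± 8.06), *Syk* (21.4 ± 5.50), *Hcst* (10.1 ± 2.53), *Pilra* (9.21 ± 1.58) and *Tarm1* (0.636 ± 0.740). The ranges of *Sirpa* and *Siglech*, of *Cd33* and *Siglece* and of *Hcst* and *Pilra* overlapped, and all other neighbours were apart. In ARG1+ microglia *Tyrobp* (990 ± 240) and *Sirpa* (961 ± 142) overlapped, followed by *Siglech* (457 ± 43.2), *Trem2* (251 ± 32.6), *Cd33* (80.6 ± 10.2) and *Siglece* (39.4 ± 8.05). *Syk* (23.5 ± 5.06) overlapped *Siglece*, and *Pilra* (5.74 ± 1.25), *Hcst* (5.24 ± 1.92) and *Tarm1* (2.19 ± 1.62) followed, each overlapping the next. The receptor-adaptor pair *Trem2* and *Tyrobp* thus stayed in the same order in both populations, and *Cd33* was apart from *Siglece* only in ARG1+ microglia.

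Ratios between genes within a library do not depend on the scaling between libraries, and 7 were compared by a two-sided exact permutation test of 6 against 6 libraries, whose smallest possible p is 0.00216. The ratio of *Trem2* to *Tyrobp* CPM was higher in ARG1+ microglia, with a geometric mean of 1.92 (range 1.53 to 2.86) against 1.24 (range 1.16 to 1.36). The difference was 0.63 on the log2 scale (exact permutation p = 0.00216, adjusted p over the 7 ratios 0.00758), higher in 6 of 6 ARG1+ libraries than in any ARG1- library. The ratio of *Cd33* to *Siglech* was 0.405 (range 0.361 to 0.478) in ARG1+ and 0.182 (range 0.155 to 0.210) in ARG1- libraries, a difference of 1.15 (exact permutation p = 0.00216, adjusted p 0.00758) with no overlap. *Syk* to *Tyrobp* was 0.336 against 0.149, a difference of 1.17 (exact permutation p = 0.00433, adjusted p 0.0101). With the length trend removed these 3 differences were 0.40, 0.97 and 0.79, and all 3 kept an adjusted p under the limit of 0.05 (0.00758, 0.00758 and 0.0101, exact permutation test). These 3 ratios reuse genes tested above, so they are not separate evidence. *Syk* by itself was not called (log2 fold change 0.15), and its ratio mostly restates the fall of *Tyrobp* (-0.997). In *Cd33* to *Siglech*, the larger change was that of *Siglech* (-0.73, against 0.42 for *Cd33*). The other ratios did not pass. *Hcst* to *Tyrobp*, the balance of the adaptors, was 0.00578 in ARG1+ and 0.00547 in ARG1- libraries (adjusted p 0.673, exact permutation test), *Siglech* to *Tyrobp* was 2.39 against 1.94 (adjusted p 0.167), *Siglece* to *Siglech* was 0.0466 against 0.0406 (adjusted p 0.461) and *Sirpa* to its ligand gene *Cd47* was 23.7 against 25.3 (adjusted p 0.673).

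**Figure D4:**
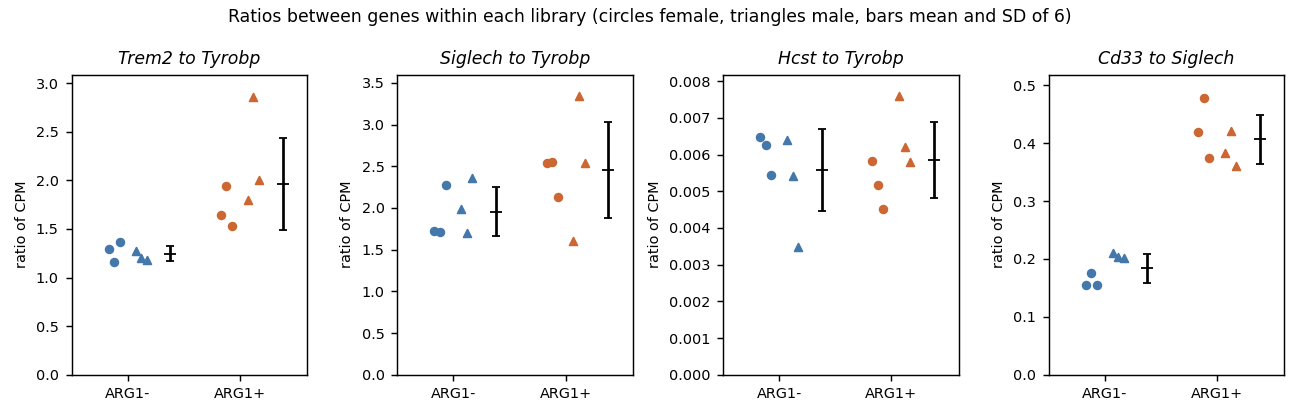
Ratio of the CPM of 2 genes (y axis, from 0) in each of the 6 ARG1- (blue) and 6 ARG1+ (orange) libraries, with circles for females, triangles for males and a bar for the arithmetic mean and SD of 6. The ratios of Trem2 to Tyrobp and of Cd33 to Siglech do not overlap between the populations, whereas those of Hcst to Tyrobp and of Siglech to Tyrobp do.

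The comparison was then made within each sex, from a fit of the 4 group means. In females, 5 of the 10 genes were called, *Trem2*, *Tyrobp*, *Siglech* and *Siglece* lower and *Cd33* higher, beside 6.76% of all genes (4.16% lower, 2.6% higher). In males, 3 were called, *Tyrobp* and *Siglech* lower and *Tarm1* higher, beside 5.13% of all genes (3.1% lower, 2.03% higher). *Tyrobp* had a log2 fold change of -0.95 in females (edgeR adjusted p = 0.0320) and -1.05 in males (0.0304). *Siglech* was at -0.61 (0.0107) in females and -0.85 (0.00918) in males.

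*Cd33* showed the smallest unadjusted p for a difference between the sexes among the 9 genes detected in every library. In females it was at 344, 457 and 414 CPM in ARG1- and at 717, 719 and 640 CPM in ARG1+ libraries, without overlap, a log2 fold change of 0.77 (edgeR adjusted p = 0.00760). In males it was at 521, 502 and 580 CPM in ARG1- and at 531, 585 and 569 CPM in ARG1+ libraries, which overlapped, a log2 fold change of 0.07 (edgeR adjusted p = 0.778). The difference between the sexes was 0.70 (95% confidence interval 0.34 to 1.07, unadjusted p = 0.00135 in the edgeR fit) and did not pass adjustment over all genes (adjusted p = 0.365). *Siglece* differed the other way, with -0.85 in females (edgeR adjusted p = 0.0179) and -0.20 in males (0.543), a difference of -0.65 (adjusted p = 0.486). *Syk* was at -0.21 in females and 0.51 in males, neither called, and the difference of -0.73 (95% confidence interval -1.39 to -0.06) had an edgeR adjusted p of 0.501. *Trem2* was at -0.53 in females (edgeR adjusted p = 0.0239) and -0.26 in males (0.202), and the difference of -0.27 had a confidence interval of -0.63 to 0.09 (adjusted p = 0.654).

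In edgeR, 0 of the 10 genes, and 0% of all genes tested, had a difference between the sexes past the adjusted limit. At an unadjusted p under 0.05 there were 4 of the 10, *Cd33*, *Siglece*, *Syk* and *Tarm1*, beside 9.32% of all genes, and no other tool was run on this difference. The smallest adjusted p over all genes was 0.146. *Tarm1* rested on the 3 ARG1- male libraries without a count. The within-sex counts rested on few libraries. In females the count was 1 without ARG1+ female replicate 7 or 8, and 3 without ARG1- female replicate 2 or 13, ARG1+ female replicate 15 or ARG1+ male replicate 16. In males it was 0 without ARG1+ male replicate 12, the library with the steepest length slope, and with the length trend removed it was 2, since *Tyrobp* (-0.77, edgeR adjusted p = 0.0501) was lost. In females the count was 5 with the length trend removed, *Cd33* among them (0.63, adjusted p = 0.0173), and 3 with length and GC content removed, where *Trem2* (-0.41, adjusted p = 0.0505) and *Siglece* (-0.65, adjusted p = 0.0603) were lost.

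**Figure D5:**
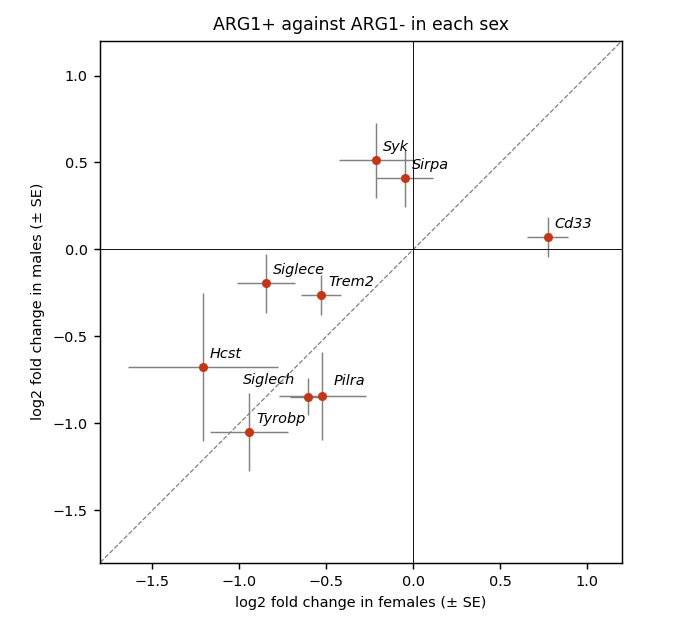
Log2 fold change (ARG1+ against ARG1-) in females (x axis) and in males (y axis) for 9 genes, each with its standard error as a grey bar and with a dashed line where both are equal. Tarm1 is left out, Cd33 lies far to the right of the dashed line (0.77 in females, 0.07 in males), and Tyrobp lies near it.

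The other genes of the pathway were described by 9 lists of 125 genes, of which 114 were tested. In ARG1+ microglia 18 of these were called higher and 11 lower, beside 6.44% higher and 9.42% lower of all genes tested. With the length trend removed these counts were 14 and 9, beside 5.05% and 7.79% of all genes. Among 12 other receptors that pair with TYROBP or HCST, 4 were tested, and *Clec5a*, a lectin receptor that uses TYROBP, was the 1 called, lower at 122 ± 15.98 CPM against 198 ± 52.7 (SD, n = 6, log2 fold change -0.70, edgeR adjusted p = 0.0144). The 3 not called were low in CPM, with fitted changes towards ARG1+ microglia. *Cd300lb* was at 8.88 against 1.26 CPM (4.59, edgeR adjusted p = 0.117) and *Plxna1* at 6.92 against 1.68 (2.15, 0.252). *Pilrb2* was at 0.518 against 0.0167 CPM (5.03, 0.0627), and the list's median was 3.37. *Cd300lb* had counts in 7 libraries and *Pilrb2* in 5, and both passed the filter on low counts through ARG1+ libraries. The direction of these genes was thus largely set by the filter, and the median is not read as a rise of the list. *Trem1* and *Siglec15* had no count in any library.

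Of 5 other Siglecs, all tested, *Cd22* was higher, at 21.9 ± 5.90 CPM in ARG1+ against 9.87 ± 4.17 in ARG1- libraries (log2 fold change 1.19, edgeR adjusted p = 0.0353, no overlap), and 4 did not pass. *CD22* is an inhibitory Siglec best known from B cells. The list's median log2 fold change was -0.01. Of 10 other inhibitory receptors, 3 were lower, the lectin *Clec4a2* (-1.09, edgeR adjusted p = 0.00183), the lipid-binding *Cd300a* (-0.30, 0.0237) and the collagen receptor *Lair1* (-0.33, 0.0233). *Lilrb4a* was higher (2.41, edgeR adjusted p = 0.0272), from 2.74 ± 1.84 to 14.6 ± 4.96 CPM, and the median of the list was -0.07.

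Downstream of the ITAM, 28 of 31 kinases, adaptors and effectors were tested, with 3 higher, 2 lower and a median log2 fold change of 0.15. The Src family kinase *Lyn*, which phosphorylates ITAMs and ITIMs, was lower, at 666 ± 48.2 CPM against 793 ± 59.6 (SD, n = 6, log2 fold change -0.25, edgeR adjusted p = 0.0419). The phospholipase *Plcg1* (0.63, edgeR adjusted p = 0.0125), the PI3 kinase subunit *Pik3r1* (0.57, 0.0234) and the transcription factor *Nfatc1* (0.47, 0.0428) were higher. Among 11 phosphatases, ubiquitin ligases and other regulators of ITAM and ITIM signalling, the ligase *Cbl* (1.22, edgeR adjusted p = 0.00914) and the phosphatase *Ptprc* (0.45, 0.0186) were higher. *Ptpn6*, the phosphatase that ITIMs recruit, was lower (-0.32, edgeR adjusted p = 0.0253), at 651 ± 67.2 CPM against 812 ± 62.5, and the median was 0.17.

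Of 14 genes for TREM2 sheddases, Ms4a proteins and ligands, 2 were higher and 2 lower, with a median of 0.23. *Apoe*, a ligand of TREM2, was at 9926 ± 1880 CPM in ARG1+ and 2994 ± 285 in ARG1- libraries (SD, n = 6, log2 fold change 1.72, edgeR adjusted p = 4.52e-05), and *Adam17*, which cleaves TREM2 from the surface, was at 0.38 (adjusted p = 0.0430). *Ms4a6b* (-0.85, edgeR adjusted p = 0.00106) and *Ms4a6c* (-0.67, 0.0233) were lower. Of 19 genes that make, transfer or remove sialic acid, which Siglecs bind, 17 did not pass and 2 were lower, *Nans* (-0.62, adjusted p = 0.0128), a synthase of sialic acid, and the sialyltransferase *St3gal4* (-0.55, 0.0483), and the median was -0.05. The last lists held genes of disease-associated microglia, split by a choice made here into Trem2-independent and Trem2-dependent genes. The place of a gene in this split was not tested, and *Timp2* (0.30, edgeR adjusted p = 0.0992) was counted as independent. Neither of these lists held *Apoe*, *Tyrobp* or *Trem2*, which were counted with other genes above, so the medians of these lists leave all 3 out. Of 8 Trem2-independent genes, 2 were higher, *Ctsb* (0.44, edgeR adjusted p = 0.00601) and *Lyz2* (0.76, 0.00647), 6 did not pass and the median was 0.14. Of 16 Trem2-dependent genes, 8 were higher and 8 did not pass, with a median of 1.09. Those of smallest p were *Lpl* (1.67, edgeR adjusted p = 0.000263), *Axl* (1.12, 0.000275), *Ank* (1.68, 0.000275) and *Spp1* (2.52, 0.000578), while *Trem2* and *Tyrobp* themselves were lower.

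The library totals were between 28356659 and 60625170 counts. Markers of microglia were abundant in every library, with summed levels of 61600 to 83100 CPM in ARG1- and 49000 to 59800 CPM in ARG1+ libraries. Of these 13 markers, 10 were lower and 1 was higher in ARG1+ microglia, beside 9.42% lower and 6.44% higher of all genes tested. Their median log2 fold change was -0.62, with the length trend in place. *Csf1r* (0.05) and *Cx3cr1* (0.08) did not pass, and *Sall1* was higher (0.43, edgeR adjusted p = 0.0239). The fall of *Siglech*, *Tyrobp* and *Trem2* thus went with that of most of these markers, but not of all. Genes with detained introns were taken as a sign of RNA state, and 5 of 11 were called higher. Their summed levels were 1950 to 3540 CPM in ARG1- and 4280 to 6010 CPM in ARG1+ libraries. Mitochondrial genes took 0.247% to 0.636% of counts in ARG1- and 0.147% to 0.396% in ARG1+ libraries. The part of both sets of genes in the results was not tested. Of other cell types, NK and T cell markers summed to at most 3.47 CPM, neutrophil markers to at most 11.5 CPM and monocyte markers to at most 14.1 CPM. The 1 NK and T cell gene tested, *Klrb1c*, was called higher, and of 4 monocyte genes tested *Fn1* was higher and *Plac8* lower. *Klrb1c* and *Fn1* had no count in ARG1- libraries, so they passed the filter through ARG1+ libraries alone. Border macrophage markers summed to 122 to 149 CPM in ARG1- and 124 to 259 CPM in ARG1+ libraries, with 1 of 7 tested higher. Most of this sum was *Mrc1*, the gene of CD206, the protein by which cells were excluded in the sort. *Mrc1* was at 121 ± 16.1 CPM in ARG1- and 147 ± 46.4 CPM in ARG1+ libraries (SD, edgeR adjusted p = 0.371). Endothelial markers summed to 30.5 to 58.2 and 39.6 to 84.2 CPM, and neuron markers to 4.5 to 20.2 and 2.31 to 10.7 CPM. Oligodendrocyte markers (265 to 390 and 171 to 267 CPM), astrocyte markers (176 to 224 and 130 to 151 CPM) and erythroid markers (3.69 to 17.7 and 0 to 3.38 CPM) each had 1 gene called lower, and immediate early genes (324 to 516 and 414 to 500 CPM) had 2 of 11 called higher.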

How the data were processed

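Microglia of YARG mice at postnatal day 13 were sequenced as 12 libraries, 3 for each of 4 groups of sex and ARG1 status. Per the study's methods and processing notes, cDNA was made with SMART-Seq v4, libraries with Nextera XT, and single-end reads were demultiplexed with bcl2fastq 2.20.0, aligned by the authors to GRCm38 with STAR 2.6.1d and counted with featureCounts 1.5.1. The strand and multimapping settings are not given in the sources used here. The values the authors deposited are raw counts per gene, without normalization, and the authors compared groups with DESeq2 1.28.1.

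Of the 55487 genes, 55227 were matched to GENCODE M21 for symbols, positions and exon lengths. The filter filterByExpr on the 4 groups left 16908 genes. Counts were scaled by TMM factors, and edgeR 4.0.16 (R 4.3.3) fitted glmQLFit models with ARG1 status and sex, tested by glmQLFTest with Benjamini-Hochberg adjustment over all genes tested. Within-sex contrasts and their difference came from a fit of the 4 group means. Ratios of CPM (plus 0.1) were compared by exact permutation. Replicate pairs differed by 40.7 to 125 times their degrees of freedom in a chi-square of counts, so each library counted as 1 replicate. Scripts were tested on simulated data.

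The 10 genes, the lists and the tests were chosen with earlier results of these data known. All 10 genes are named, and from each list the genes called with the smallest p. Of these, 1 list gene is not reported here. Alternatives were DESeq2 size factors, no filter, at least 10 counts in every library, a term for libraries numbered 13 to 16, ARG1 status alone, DESeq2 1.42.0 (no prior, or a beta prior without a sex term), a pseudocount of 1 for ratios, and each library left out. Removal of a trend on exon length, alone or with GC content (splines of 5 degrees of freedom), with each library's median trend over genes of at least 10 CPM set to 0, or with its mean over all genes also removed, was added after seeing the data. Detained-intron, neuron, oligodendrocyte, astrocyte, endothelial, erythroid and immediate early lists were also summed. Proteins and images were not analysed here.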

Additional observations from a re-analysis of the deposited data

Results flagged for a closer look

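Among 36 sets of 6 libraries searched (the 10 genes, 7 ratios and the library total in each population), 7 held a library far from the other 5 by Dixon's test, where chance alone gives about 1 in 20, or 1.8. In ARG1- female replicate 1, *Syk* was at 299 CPM, against 151 to 201 CPM in the other ARG1- libraries, *Sirpa* was at 5670 CPM, against 3540 to 4290 CPM, and the log2 ratio of *Siglece* to *Siglech* was -4.10, against -4.90 to -4.61. In ARG1- male replicate 14, the log2 ratio of *Hcst* to *Tyrobp* was -8.16, against -7.53 to -7.27. In ARG1+ male replicate 11, *Trem2* was at 1550 CPM, against 1100 to 1240 CPM in the other ARG1+ libraries, and *Hcst* was at 6.45 CPM, against 2.48 to 3.80 CPM. The length slope of this library, -0.02, was the lowest of the ARG1+ libraries. In ARG1+ female replicate 15, *Pilra* was at 25.3 CPM, against 14.8 to 18 CPM.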

How the results depend on the processing

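*Tyrobp*, *Siglech* and *Trem2* kept their direction and call under all 10 other settings and without each of the 12 libraries. Of the 10 genes, 3 were called without a filter (0 higher, 3 lower), where *Cd33*, *Siglece* and *Pilra* had adjusted p of 0.0518, 0.0627 and 0.0563. With a term for libraries numbered 13 to 16, 0 were higher. DESeq2 without a prior called 2 higher (*Cd33* and *Tarm1*), 4101 genes in all, and 29 list genes higher. Without a filter 5 list genes were lower. The trend removals were chosen after seeing the data. With the trend on length, or on length and GC content, removed, 0 of the 10 genes were higher, *Siglece* (adjusted p = 0.214 and 0.207) and *Cd33* (0.167 and 0.155) were not called, and *Syk* was at -0.0263 under the first. In males, *Siglece* was then at 0.0375 and 0.00505 and *Cd33* at -0.0389 and -0.0366. In females, 3 were called with length and GC content removed, and *Sirpa* was at 0.0774. The sex difference of *Tyrobp* was -0.0645 with length removed, and *Sirpa* to *Cd47* 0.0212 with length and GC content removed. Where each library's mean over all genes was removed with the length trend, the median log2 fold change of all genes moved from 0.06 to -0.26 and 87.9% of calls were lower (59.4% otherwise). There 0 of the 10 genes were higher, 29 list genes were lower, and *Syk*, *Cd33* and *Sirpa* were at -0.350, -0.0408 and -0.150. *Sirpa* in females was at 0.00815 with DESeq2 size factors.

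Without each library in turn, 3 to 6 of the 10 genes were called (0 to 1 higher, 3 to 5 lower), 3 of them without ARG1- female replicate 13, ARG1+ female replicate 7 or 8 or ARG1+ male replicate 16. Genes called ranged from 1753 (without ARG1+ male replicate 12) to 2669, list genes higher from 14 to 19 and lower from 5 to 10, and calls in females from 1 to 5 and in males from 0 to 4. Ratio differences ranged from -0.0507 (without ARG1- male replicate 14) to 0.15 for *Hcst* to *Tyrobp*, from 0.21 to 0.42 for *Siglech* to *Tyrobp*, called only without ARG1+ male replicate 11 (adjusted p = 0.0227), and from -0.198 to 0.00628 for *Sirpa* to *Cd47*. In females, *Syk* ranged from -0.328 to 0.0116, turning without ARG1- female replicate 1, and *Sirpa* from -0.163 to 0.125, turning without that library or ARG1+ female replicate 15 (0.0697). The sex difference of *Tyrobp* turned to -0.0209 without ARG1+ female replicate 15 and to -0.12 without ARG1+ male replicate 12. The causes were not tested. No paired analysis was possible because the groups compared share no replicate number in the labels. With 0 counts in 3 libraries, *Tarm1* is known there only up to the limit of 3 counts.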
